A study of Mus musculus with 6 samples.

Results

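The late cornified envelope 1 (Lce1) genes form a family of 10 named members here: Lce1a1, Lce1a2, Lce1b, Lce1c, Lce1d, Lce1e, Lce1f, Lce1g, Lce1i and Lce1m. Their probe sets were taken by gene symbol, older clone names included, from an array table of 45037 non-control probe sets. This gave 11 probe sets for 9 of the 10 genes, with a pair each for Lce1a1 and Lce1f, and 0 of the 11 were annotated to a further gene. Lce1e had no probe set under its symbol or older names and was not analysed here. RNA came from whole back skin of female mice of 1 litter, killed at postnatal day 2.5, on a mixed FVB/N and C57BL/6 background. The 3 caNrf2 mice were K5cre-caNrf2 and are given as tg/tg in the protocol, although the genotype cell of each reads tg/g. The 3 control mice were K5cre-wt, labelled tg/wt. K5cre was thus carried by both groups. caNrf2 stands for Nrf2, a transcription factor, in an always-active version, and the keratin 5 promoter directs Cre to basal keratinocytes and their descendants, so other cells of whole skin carry no active transgene by design. Each mouse gave 1 array.

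Lce genes code for small cysteine- and glycine-rich proteins made late in keratinocyte differentiation, in the granular layer of the epidermis. Transglutaminases cross-link them into the cornified envelope, the protein shell that replaces the plasma membrane of dead surface cells. The mouse genes lie together in the epidermal differentiation complex on chromosome 3, among genes for loricrin, involucrin, filaggrin and the small proline-rich proteins. Nrf2 binds antioxidant response elements and is best known for inducing detoxification enzymes. The study set out, by its title, to find target genes of Nrf2 in skin.

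The members resemble one another in the DNA before their starts. RefSeq promoters (build GRCm38.p6) were found for 9 of the 10 genes, all but Lce1f. The 100 bases before each annotated start are shown because they hold a run that most members share and few other promoters hold. Capitals mark that 12-base run, CTGTCTCACAGG, and the TATA-like letters TAAAAG.
Lce1a1, chr3:92648308-92648407, minus strand: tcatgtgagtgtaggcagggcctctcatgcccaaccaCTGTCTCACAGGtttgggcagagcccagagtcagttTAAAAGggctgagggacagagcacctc
Lce1b, chr3:92656927-92657026, minus strand: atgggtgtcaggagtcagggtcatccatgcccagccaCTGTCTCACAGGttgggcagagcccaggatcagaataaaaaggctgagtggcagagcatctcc
Lce1a2, chr3:92670316-92670415, minus strand: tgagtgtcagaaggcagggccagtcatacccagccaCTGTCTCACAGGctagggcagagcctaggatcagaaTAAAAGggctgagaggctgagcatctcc
Lce1c, chr3:92679147-92679246, plus strand: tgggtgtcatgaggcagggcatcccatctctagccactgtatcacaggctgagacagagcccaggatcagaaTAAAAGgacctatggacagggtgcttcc
Lce1d, chr3:92687211-92687310, minus strand: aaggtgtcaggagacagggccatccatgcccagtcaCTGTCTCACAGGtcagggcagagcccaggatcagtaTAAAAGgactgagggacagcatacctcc
Lce1e, chr3:92709075-92709174, minus strand: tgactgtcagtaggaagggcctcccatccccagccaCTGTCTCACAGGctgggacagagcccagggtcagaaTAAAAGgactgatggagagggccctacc
Lce1g, chr3:92752339-92752438, minus strand: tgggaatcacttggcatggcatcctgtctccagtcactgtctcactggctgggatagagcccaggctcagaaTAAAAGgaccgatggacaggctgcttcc
Lce1i, chr3:92778900-92778999, minus strand: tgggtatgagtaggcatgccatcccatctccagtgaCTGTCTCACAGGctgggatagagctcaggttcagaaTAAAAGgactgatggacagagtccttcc
Lce1m, chr3:93019062-93019161, minus strand: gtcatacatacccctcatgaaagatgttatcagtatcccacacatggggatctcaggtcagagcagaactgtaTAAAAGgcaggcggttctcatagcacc

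The run CTGTCTCACAGG, which with a run overlapping it by all but 1 letter was found in more member promoters than any other 12 letters, stood within 250 bases of the start in 6 of 9 members on the gene's own strand. Both strands of all promoters in the table were searched, and 10 of 32851, or 0.0304%, held it. The other 4 were those of Lce1h, a family gene outside the member list, and of Aatk, Kif17 and 5330434G04Rik on other chromosomes. It began 63 or 64 bases before the start in each of the 6 members. Lce1c and Lce1g held the same stretch with 1 mismatch. Lce1m had at best 3 mismatches to the run in its 100 bases. The letters TAAAAG on the gene strand, beginning 40 to 21 bases before the start, were in 8 of 9 members against 1.29% of all promoters. Lce1b was the member without these exact letters and reads taaaaag at that place. A more general TATA pattern was not searched, and these shares were not tested. Lce1m also stood apart over the whole stretch, at 45.1% to 55.3% identity with the other 8 members, whereas the 28 pairs among those 8 had 66.3% to 86.1%.

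The core of the antioxidant response element, TGANNNNGC, was searched on both strands of the 250 bases before the start. It was present in 3 of 9 members, Lce1d, Lce1e and Lce1i, and in 35.2% of all promoters. In Lce1d the match ended just before the 12-base run, without overlapping it. The AP-1 letters TGANTCA, searched on both strands, were in 0 of 9 members and in 6.75% of all promoters. These are matches of letters in a short window and not sites shown to be bound.

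**Figure D1:**
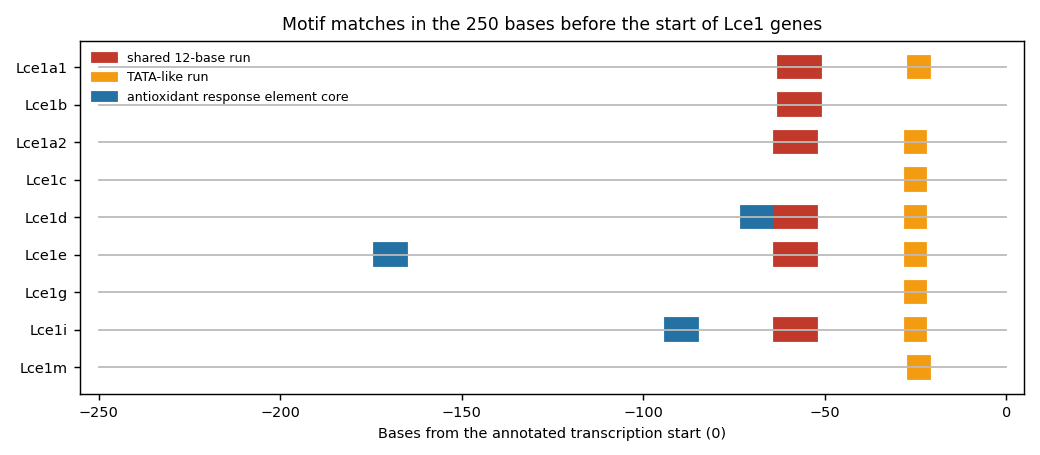
Motif matches in the 250 bases before the annotated start (0 on the horizontal axis) of 9 Lce1 genes, 1 line per gene. The shared 12-base run lies 63 or 64 bases before the start in 6 genes, the TATA-like letters lie near the start in 8, and the antioxidant response element core is in 3 at differing places.

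The active Nrf2 allele showed in the arrays. All 14 probe sets of 7 known Nrf2 targets, including the quinone reductase Nqo1 and the sulfiredoxin Srxn1, were higher in caNrf2 skin (median log2 difference 1.61, limma). Nfe2l2, the gene for Nrf2, averaged 1200 ± 56.4 in caNrf2 and 775 ± 49.5 in control skin by its brighter probe set (mean intensity ± SD, n = 3 each). Array medians lay between 80.2 and 81.4 and the highest values between 20444 and 21290. Over all probe sets 470 were higher and 285 lower in caNrf2 skin (limma with Benjamini-Hochberg adjustment, adjusted p under 0.05).

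Lce1 transcripts differed little between the genotypes. Of the 11 probe sets, 1 was higher in caNrf2 skin (Lce1d), 1 was lower (a probe set of Lce1f) and 9 did not pass the test. Over the whole array 1.04% were called higher, 0.633% lower and 1.68% in either direction. The difference was positive in 7 and negative in 4 Lce1 probe sets, with a median log2 difference of 0.18 against -0.004 over all probe sets. The groups did not overlap in 7 probe sets with caNrf2 higher, where 11.4% of all did so, and in 1 with caNrf2 lower, where 11.7% did so, and thus in 8 of 11 in either direction, against 23.0% of all. Unadjusted p was under 0.05 for 7 of the 11, against 17.4% of all. In whole skin, fewer cells of a type and less RNA per cell cannot be told apart. Intensities of different probe sets cannot be set against each other, so each Lce1 probe set is compared only between genotypes. Probe sets ending in _x_at, 3 of the 11, hold probes that may also bind other transcripts by the maker's naming, and the 1 ending in _s_at is shared by several transcripts. How far members share signal was not tested, so the 11 are not independent.

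**Figure D2:**
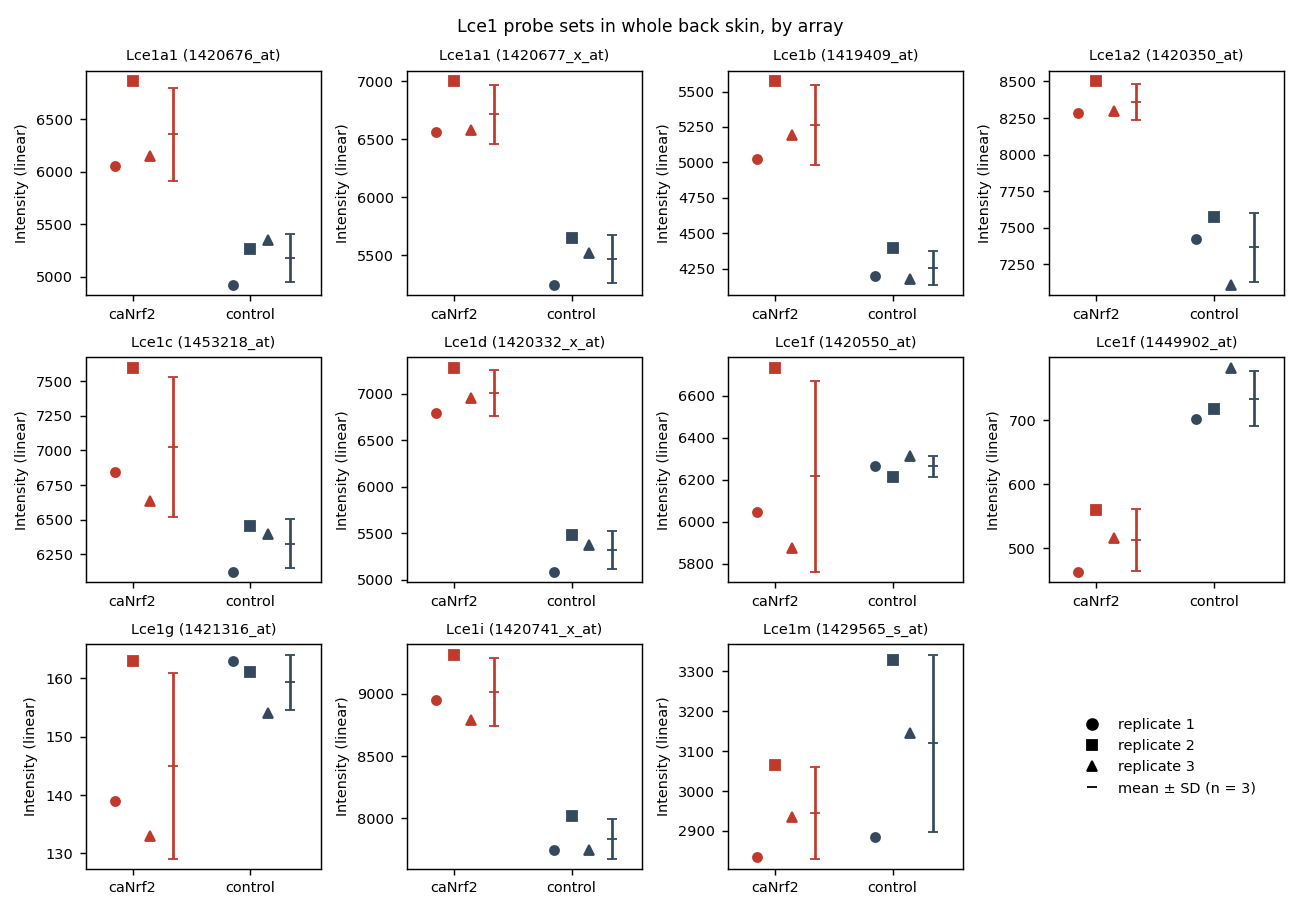
Linear intensity of each Lce1 probe set on each of 6 arrays, caNrf2 left and control right, with 1 marker shape per replicate number and bars for the mean ± SD (n = 3). Axes do not start at 0. The groups are apart in 8 panels, 7 of them with caNrf2 higher, and overlap in both Lce1g and Lce1m and in 1 of the Lce1f panels.

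Lce1d was the member called higher. Its only probe set (1420332_x_at) is of the kind that may also bind other transcripts. It read 6789, 7279 and 6949 in caNrf2 skin and 5088, 5483 and 5379 in control skin. Every caNrf2 array was above every control array, and the gap was wider than the spread within either group. The signal was 1.32-fold higher (95% confidence interval 1.19 to 1.46), a log2 difference of 0.40 ± 0.07 (SE; limma, adjusted p = 0.0168). This interval overlaps those of the Lce1b, Lce1a1, Lce1i, Lce1a2 and Lce1c probe sets. Leaving out caNrf2 replicate 2, caNrf2 replicate 3, control replicate 1 or control replicate 3 ended the call, at limma adjusted p = 0.0646, 0.0688, 0.0848 and 0.0547. The log2 difference was still 0.37 to 0.41 in those fits.

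Lce1a1 and Lce1b, neighbours at the start of the cluster, lay apart by genotype without passing. Lce1b read 5025, 5576 and 5192 in caNrf2 skin, and 4199, 4394 and 4174 in control skin. This is a 1.24-fold difference (1.11 to 1.37; limma, adjusted p = 0.06). The Lce1a1 probe sets gave the same picture as each other. The first (1420676_at) read 6057, 6866 and 6147 in caNrf2 and 4923, 5266 and 5354 in control skin, and the second (1420677_x_at) 6560, 7002 and 6575 in caNrf2 and 5246, 5645 and 5518 in control skin. Both differed 1.23-fold, with limma adjusted p = 0.0912 and 0.0619. In all 3 probe sets the lowest caNrf2 array was above the highest control array. With 1 probe set per gene, which reduces the adjustment to 18193 genes, Lce1b and the second Lce1a1 probe set passed at limma adjusted p = 0.0294 and 0.0296, and the call therefore depends on that choice.

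Lce1a2, Lce1i and Lce1c had smaller positive differences. Lce1a2 read 8282, 8504 and 8295 in caNrf2 skin and 7422, 7571 and 7110 in control skin, a 1.14-fold difference (1.03 to 1.25; limma, adjusted p = 0.184). Lce1i read 8948, 9316 and 8787 in caNrf2 skin and 7747, 8021 and 7742 in control skin, a 1.15-fold difference (1.04 to 1.27; limma, adjusted p = 0.155). The groups did not overlap for either gene, yet neither passed over all probe sets, and both passed with an intensity trend and robust variances together (adjusted p = 0.0248 for Lce1a2 and 0.0129 for Lce1i). Lce1c read 6845, 7597 and 6634 in caNrf2 skin and 6124, 6455 and 6395 in control skin. Its groups were just apart, and its interval of 0.992- to 1.24-fold includes no difference (limma, adjusted p = 0.317).

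Lce1f gave differing answers by probe set, 1 flat and 1 lower. The bright probe set (1420550_at) read 6044, 6734 and 5874 in caNrf2 skin and 6266, 6212 and 6313 in control skin. The control arrays all lay within the caNrf2 range, and the 0.991-fold difference (0.888 to 1.11) did not pass (limma, adjusted p = 0.943). The other (1449902_at) read 463, 560 and 515 in caNrf2 skin and 701, 718 and 782 in control skin. All caNrf2 arrays were lower there, at 0.697-fold (0.612 to 0.794), a log2 difference of -0.52 ± 0.08 (SE; limma, adjusted p = 0.0145). That call was lost without caNrf2 replicate 3 (adjusted p = 0.062) or control replicate 3 (0.0674). The annotation gives both probe sets the same source sequence. The log2 ratio of the bright to the dim probe set was 3.60 ± 0.10 in caNrf2 and 3.10 ± 0.08 in control skin (SD, n = 3), a difference of 0.51 with an exact two-sided permutation p of 0.1, the smallest that 3 against 3 arrays allow. The same ratio for the Lce1a1 pair was -0.08 ± 0.05 and -0.08 ± 0.03 (exact p = 1). These were the 2 genes with several probe sets, and the p-values adjusted over them are 0.2 and 1. Whether Lce1f itself was lower can therefore not be stated from these probe sets.

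Lce1g and Lce1m had negative differences within the spread of the arrays. Lce1g read 139, 163 and 133 in caNrf2 skin and 163, 161 and 154 in control skin (0.908-fold, 0.796 to 1.03; limma, adjusted p = 0.414). Lce1m, once named Lce5a and separated from the other members by the Lce3 genes, read 2836, 3065 and 2936 in caNrf2 skin and 2886, 3328 and 3146 in control skin (0.945-fold, 0.843 to 1.06; limma, adjusted p = 0.598). In both genes the groups overlapped.

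**Figure D3:**
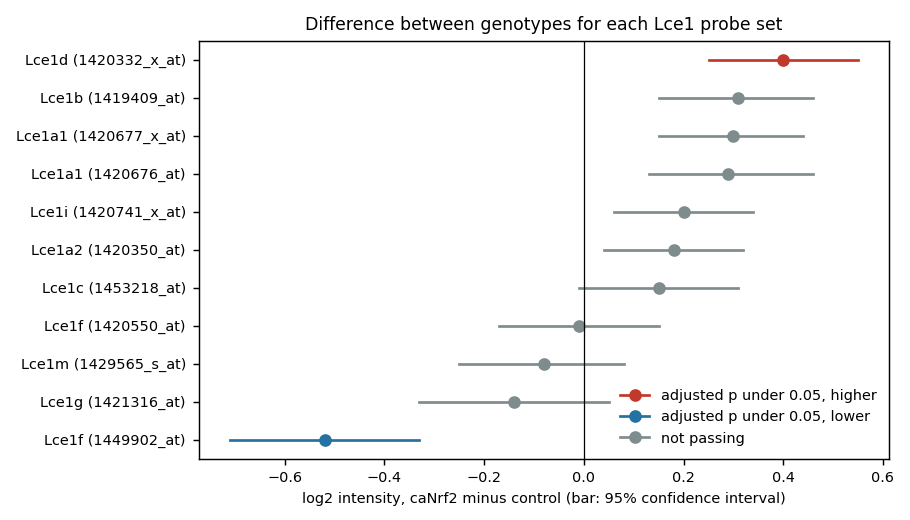
Log2 intensity difference, caNrf2 minus control, of the 11 Lce1 probe sets with 95% confidence intervals, sorted by size. Lce1d at 0.40 passed as higher and 1 Lce1f probe set at -0.52 as lower, and the intervals of 5 more, of Lce1a1, Lce1b, Lce1i and Lce1a2, lie above 0.

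By order along chromosome 3, the 5 measured members from Lce1a1 to Lce1d were all on the positive side, followed by the mixed Lce1f and by Lce1g on the negative side. Lce1i, after Lce1h, was positive again. Of the 13 other Lce and neighbouring genes listed for comparison, 8 were measured. Their median log2 difference was 0.28, and 5 had an unadjusted limma p under 0.05, against 17.4% of all probe sets. By adjusted p, 3 were higher, 0 lower and 5 did not pass. Those that rose were Lce3f by 0.63 ± 0.07, Lce3c by 0.49 ± 0.08 and Kprp, a proline-rich keratinocyte protein within the cluster, by 0.31 ± 0.06 (log2, SE; limma, adjusted p = 0.00174, 0.0142 and 0.0412). The Lce3f control mean of 57.2 lies within 6.46 to 61.6, the range of group means of 20 probe sets of Y-linked genes in these female mice, so the size of its difference is uncertain. The Kprp call was lost whichever array was left out (adjusted p up to 0.153) and with the replicate number as a block (0.0775). The Lce3c call was lost without caNrf2 replicate 2, caNrf2 replicate 3 or control replicate 1 (up to 0.0622). Its probe set ends in _x_at, the kind that may also bind other transcripts. The gene 2310050C09Rik, between Lce1l and Lce3a, is on no list and was named after its values were seen. It was higher by 0.41 (log2; limma, adjusted p = 0.00852). The family genes Lce1h (0.11 ± 0.07, adjusted p = 0.413) and Lce1l (0.59 ± 0.19, adjusted p = 0.169) did not pass.

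**Figure D4:**
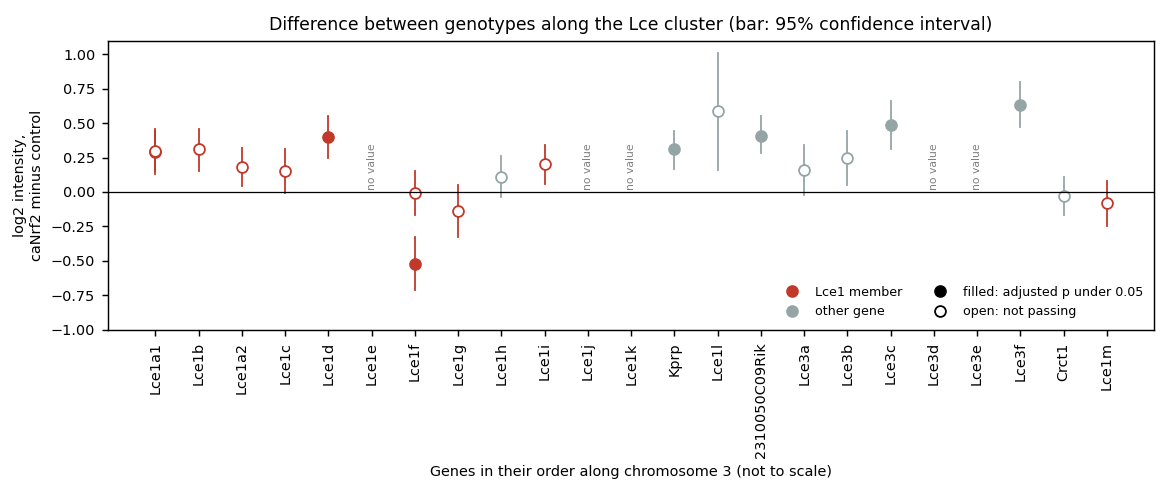
Log2 difference, caNrf2 minus control, with 95% confidence intervals for the genes from Lce1a1 to Lce1m in their order along chromosome 3 (not to scale). Members are red, and filled points passed the test. Lce1a1 to Lce1d lie above 0, Lce1f and Lce1g at or below it, and Lce1m, at the far end, near it.

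One caNrf2 array stood above its group for the whole family. caNrf2 replicate 2 had the highest value of the caNrf2 arrays in 11 of 11 Lce1 probe sets, also in those that were lower than in control skin, with a median of 0.08 above the group mean on the log2 scale. caNrf2 replicates 1 and 3 had medians of -0.04 and -0.03, and control replicates 1, 2 and 3 had -0.05, 0.03 and 0.01. Without caNrf2 replicate 2 the log2 difference was 0.26 for Lce1b, 0.24 and 0.26 for Lce1a1 and 0.09 for Lce1c. By limma, 0 Lce1 probe sets were then called higher, with 6 higher at an unadjusted p under 0.05. The number called higher was also 0 without caNrf2 replicate 3, control replicate 1 or control replicate 3. The neighbouring Lce list followed the same array, with a median deviation of 0.09 in caNrf2 replicate 2. The granular layer markers had 0.04 there. The share of all probe sets that were highest in caNrf2 replicate 2 within its group is not given here.

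**Figure D5:**
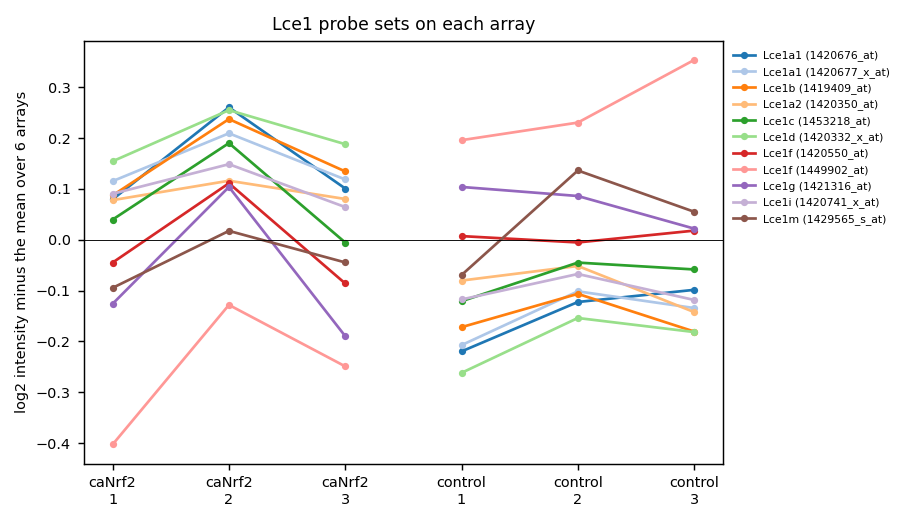
Log2 intensity of each Lce1 probe set on each array, minus its mean over the 6 arrays. Lines join the values of 1 probe set within a group, and the order of replicates has no meaning. caNrf2 replicate 2 is the highest caNrf2 array for all 11.

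Other genes were ranked by how like their profile over the 6 arrays was to the mean of the Lce1 probe sets. That mean is highest in caNrf2 replicate 2, so genes picked this way share this by selection. Among 21691 probe sets with 1 symbol and a mean intensity over 64, the highest Pearson correlations were those of Ppif (0.999), Grwd1 (0.997), Zfp13 (0.996), Lce1l (0.996), Runx3 (0.994), Psmb4 (0.992), Nxph4 (0.990) and Pkmyt1 (0.986). Lce1l, the family gene among them, read 316, 545 and 333 in caNrf2 skin and 216, 284 and 277 in control skin. It is high in caNrf2 replicate 2 and low in control replicate 1. None of the 8 passed the test. A correlation over 0.9 was found for 340 probe sets, so likeness over 6 arrays picks out no small group. By deviations from the group means the closest were Stmn1, Zfp963 and Cenpw (0.999 each), Pfkfb3, Tomm7 and Lbx1 (0.998 each), and Ppif and Septin6 (0.997 each), and 508 were over 0.9.

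Other envelope genes gave a mixed picture, as did markers of the layer that makes the Lce proteins. Of 9 measured Sprr genes, whose small proline-rich proteins are cross-linked into the same envelope, 3 were higher, 0 lower and 6 did not pass, with a median log2 difference of 0.34. Sprr2d rose by 2.38 ± 0.08 and Sprr2h by 1.66 ± 0.07 (log2, SE; limma, adjusted p = 2.39e-07 and 8.57e-07). The Sprr2h probe set ends in _s_at, the kind shared by several transcripts. How much of its signal is that of Sprr2h was not tested. The third, Sprr2f, had both group means within the range of the Y-linked probe sets, and its call was lost with the replicate block (limma adjusted p = 0.0609) and without caNrf2 replicate 2, caNrf2 replicate 3 or control replicate 3 (up to 0.0741). Of 27 probe sets for 18 granular layer markers, 1 was higher, 2 were lower and 24 did not pass, with a median of 0.03. Unadjusted limma p was under 0.05 for 8 of these 27 and for 6 of the 9 Sprr probe sets, against 17.4% of all. Tgm3, a transglutaminase of the envelope, rose by 0.42 ± 0.07 (limma, adjusted p = 0.0217), although its other probe set missed the threshold (adjusted p = 0.0532). The Tgm3 call was lost with the replicate block (0.0656) and with any array left out except control replicate 1 (up to 0.0814). Both probe sets of involucrin (Ivl), an early envelope scaffold, fell, at -0.55 ± 0.08 and -0.60 ± 0.09 (limma, adjusted p = 0.00899 and 0.00963). Both missed the threshold without control replicate 3 (limma adjusted p = 0.0513 and 0.052). The first also missed it without caNrf2 replicate 3 (0.0501). Loricrin (Lor), the main envelope protein, had 3 probe sets. One gave a log2 difference of 0.09 and did not pass (limma, adjusted p = 0.568). Another had both group means, 40.5 in caNrf2 and 44.9 in control skin, within the Y-linked range, and the last, at 18966 in caNrf2 and 18793 in control skin, lay near the highest values on the arrays. Filaggrin (Flg) gave 0.11 and did not pass. The granular marker intensities summed to between 140944 and 146576 on caNrf2 arrays and between 138215 and 140947 on control arrays. These ranges touch only at the edge, the lowest caNrf2 array lying just under the highest control array. Such sums add linear intensities of different probe sets, so the brightest weigh most, and genes with several probe sets count several times. The sums were not tested, and their part in the Lce1 differences was not tested.

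Spinous layer markers had 1 higher (Sfn, 0.35 ± 0.06, limma adjusted p = 0.0267), 1 lower (Krt77, -0.61 ± 0.09, adjusted p = 0.00642) and 6 not passing of 8 probe sets, with a median of 0.05. The Sfn call was lost with the replicate block (0.0578) and with any array left out except control replicate 2 (up to 0.1). Of 13 basal keratinocyte probe sets 1 was lower (Krt15, -0.30 ± 0.06, limma adjusted p = 0.0482) and 12 did not pass. The Krt15 call was lost with the replicate block (0.0802) and whichever array was left out (up to 0.165). Of 24 probe sets for regulators of envelope genes, 2 were higher and 22 did not pass. Both were those of Fosl1, an AP-1 subunit, at 0.93 ± 0.09 and 0.83 ± 0.09 (limma, adjusted p = 0.000537 and 0.00146). Their control means were 63.0, just above the Y-linked range, and 35.6, within it, so the sizes are uncertain. The 5 probe sets of Satb1, a chromatin organiser, did not pass. Those with positive log2 differences (0.22 and 0.23) had both group means within the Y-linked range. The others, above that range, were negative (-0.20, -0.14 and -0.05). Gata3, Ovol1, Grhl3 and Junb, which also act in keratinocyte differentiation, were among those that did not pass. Unadjusted limma p was under 0.05 for 2 spinous, 3 basal and 8 regulator probe sets, against 17.4% of all.

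Markers of other cell types gave few calls by adjusted p, and their summed intensities were not tested. Unadjusted limma p was under 0.05 for 17.4% of all probe sets, the share to set beside the counts below. Hair follicle markers had 0 limma calls among 19 probe sets, 13 of them at an unadjusted p under 0.05, and a median log2 difference of -0.20, with a summed intensity of 69303 to 71498 in caNrf2 and 77391 to 80115 in control skin. Melanocyte markers had 0 calls among 12, with 7 at an unadjusted p under 0.05, and a median of -0.18, summing to 12099 to 13372 in caNrf2 and 14147 to 15048 in control skin. Dermal fibroblast markers had 0 calls among 14, with 0 at an unadjusted p under 0.05, and a median of -0.05, summing to 90811 to 93911 in caNrf2 and 94215 to 98061 in control skin. In these 3 lists the group ranges do not overlap, and caNrf2 skin is the lower. Among single probe sets, 23.0% of all did not overlap in either direction. The brightest fibroblast probe sets lay near the highest values on the arrays. They were those of Col3a1 (20637 in caNrf2 and 20647 in control skin) and Col1a2 (20048 and 20622). Their part in the Lce1 differences was not tested. Immune (7 probe sets), endothelial (5) and skeletal muscle (6) markers had 0 calls and overlapping sums, with 2, 0 and 1 at an unadjusted p under 0.05. Among 7 adipocyte probe sets 1, that of leptin (Lep), fell, at -0.58 ± 0.07 (limma, adjusted p = 0.00231), and the sums overlapped.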

How the data were processed

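Whole skin RNA of 6 mice was hybridised to 1-colour Affymetrix arrays. The values deposited by the authors are linear probe set intensities, made with the RMA method, as the submitters' processing notes state. The RMA version is not given in the sources used here. Near-equal array distributions hide any shift of most transcripts, and the number of arrays limits precision.

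Of 45101 rows, 64 control probe sets were left out. Symbols were updated by Entrez identifier (34741 of 34945 single-symbol probe sets matched). Values were log2-transformed and fitted per probe set with limma 3.58.1 (R 4.3.3), group as the only term, 4 residual and 5.72 prior degrees of freedom, p-values two-sided and Benjamini-Hochberg adjusted over 45037 probe sets. On simulated data for this comparison (45037 probe sets, 50 changed per size), 12% of log2 changes of 0.25, 94% of 0.5 and 100% of 1 were recovered. Identity was computed by global alignment (biopython 1.88).

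The members, lists and named genes (all members, up to 6 genes per list by p, 8 genes most alike) were chosen with earlier results of these data known. Lor, Flg, Lce1h and 2310050C09Rik are named beyond that rule, with their values seen. Alternatives changed the log2 offset, variance model, array weights, normalization, filter, unit tested, replicate block and arrays included. The limma p-values set each group difference against the spread between single littermates, which limma moderates with that of all probe sets.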

Additional observations from a re-analysis of the deposited data

How the results depend on the processing

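The sign of the Lce1 differences changed in 2 of 141 alternative fits, both of the bright Lce1f probe set with 1 array left out, and in none with another normalization. Lce1d and the lower Lce1f probe set passed under each alternative with all 6 arrays that tested them. With log2(value + 16), Lce1a1 (1420677_x_at) and Lce1b passed at limma adjusted p = 0.024 and 0.0255. Leaving out dim probe sets they passed at 0.0376 and 0.037, and with 1 probe set per gene at 0.0296 and 0.0294. These settings each gave 3 Lce1 probe sets called higher. The lower Lce1f probe set was not tested with 1 probe set per gene, which gave 0 lower. With an intensity trend and robust variances 6 were called higher, Lce1a1 passing at 0.00715 and 0.00182, Lce1b at 0.00236, Lce1a2 at 0.0248 and Lce1i at 0.0129. The cause of these changes was not tested. Leaving out 1 array gave adjusted p of 0.0353 to 0.0848 for Lce1d and 0.017 to 0.0674 for the lower Lce1f probe set, with 0 to 1 Lce1 probe sets called higher and 0 to 1 lower. No other Lce1 call changed in these fits.

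Over the array, leaving out 1 array gave 280 to 354 probe sets higher and 79 to 270 lower. The lower count was 428 with log2(value + 16), 610 with the intensity trend and robust variances together and 177 with the replicate block. The replicate numbers of the titles are not shown to pair the mice, since deviations of same-numbered arrays correlated at 0.04, 0.16 and 0.08. With the replicate block the adjusted p was 0.0368 for Lce1d and 0.0289 for the lower Lce1f probe set, so both were still called, the spinous list had 1 call, the basal list 0 and the other Lce, Sprr and granular lists 2 each, against 3 each without it. Leaving out 1 array gave 1 to 2 calls in the other Lce list, 0 to 3 in granular, 1 to 2 in spinous, 0 to 0 in basal and 0 to 1 in melanocyte markers. With the intensity trend and robust variances there were 5 granular, 2 basal, 6 hair follicle and 2 melanocyte calls. Hair follicle calls were 3 with log2(value + 16) and 1 with dim probe sets left out or 1 probe set per gene. Melanocyte calls were 1 with array weights and 1 with 1 probe set per gene, immune calls 1 with dim probe sets left out and 1 with 1 probe set per gene. By construction, 1 probe set per gene gave 1 regulator and 7 Nrf2 target calls.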
